A study of Mus musculus with 12 samples.

Results

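Psen2 lies on mouse chromosome 1, and the genes described here are its neighbours: every gene with an array probe whose midpoint lay within 10 Mb of the Psen2 probe, on either side, other than Psen2 itself and 1 gene that is not reported. Positions are those printed on the array, in build mm9. The window held 520 probes for 344 gene names. Each gene was represented by the probe with the brightest mean signal over 12 arrays. In 248 genes that probe exceeded background clearly in all 3 arrays of some group, and these could be tested. They were 248 of the 26773 genes tested on the array. The other 96 genes in the window failed that filter and have no test. Of the 248 genes, 151 lay at lower coordinates than Psen2 and 97 at higher coordinates, and 154 carried a gene symbol while 94 were unnamed or predicted transcripts.

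The arrays measured RNA from the basal forebrain (BF) and cerebral cortex (CTX) of 6 mice aged 2 months, each of which gave both tissues. The 3 DKO mice carried a ChatCre transgene and no intact Psen2 (PS2-/-). The 3 Con mice had no Cre (Cre-) and 1 intact copy of Psen2 (PS2+/-). Every mouse of both groups therefore carried at least 1 mutant Psen2 chromosome, and all 6 also carried a floxed gene on both of its chromosomes. Cre under Chat control is designed to act on a floxed gene in cells that express Chat, the enzyme that makes acetylcholine. Where Cre acted in these tissues was not measured here. The Psen2 mutation and anything linked to it was in every cell. Loss of Psen2, Cre and loss of the floxed gene cannot be told apart in the comparison of DKO with Con mice. The strains of the mice are not given in the sources used here.

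Psen2 encodes a presenilin, the catalytic subunit of gamma-secretase, the membrane protease that cuts Notch and the amyloid precursor protein. Genes near a targeted locus are inherited together with it unless a crossover separates them, and a targeted chromosome can carry neighbouring alleles from the stem cells in which it was made. The stretch of mouse chromosome 1 on the lower-coordinate side of Psen2 holds several gene clusters known to differ between inbred strains. Among them are the interferon-inducible p200 family of nucleic acid sensors, the SLAM receptors of immune cells and the Fc receptors, which bind antibodies. No sequence of these mice was analysed here, so which alleles they carried was not tested.

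Psen2 itself was lower in all DKO arrays. Its log2 level, given throughout as the log2 signal minus the 75th percentile of the same array, was -1.86, -1.44 and -1.25 in DKO BF and 0.39, 0.25 and 0.42 in Con BF. In CTX it was -1.70, -1.59 and -1.67 in DKO and 0.42, 0.50 and 0.47 in Con. The groups did not overlap in either tissue, and the difference over both tissues was -1.99 (SE 0.10, limma adjusted p 0.000662).

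Arrays within a group correlated at 0.985 to 0.995, and each array had 68.9% to 75% of its probes well above background. The first slide held 8 arrays, all of BF and the CTX arrays of DKO mice 1 and 2, and the second held 4, the CTX arrays of DKO mouse 3 and of the 3 Con mice. All mice are labelled male. DKO mice 1 and 3 had high Xist (-1.53 to -2.32) and low Ddx3y (-8.47 to -8.99), against -6.48 to -9.14 and -1.11 to -1.55 in the other 4 mice, so 2 DKO mice did not match that label. Red cell markers (7 of 7) and neutrophil markers (5 of 5) were higher in every DKO array than in every Con array of the same tissue. The summed neutrophil level was -0.29 to 0.82 in DKO BF against -2.77 to -2.14 in Con BF, and 0.08 to 1.56 in DKO CTX against -2.80 to -1.81 in Con CTX. Microglial markers did not overlap between groups for 2 of 7 genes. Cholinergic neuron markers were all well above background, with a summed level of 1.14 to 1.55 in BF and -3.24 to -1.94 in CTX.

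The sequences that carry the main finding are shown first, because probes of the same gene gave different answers. Adamts4, a secreted metalloprotease that cleaves aggrecan-type proteoglycans, had 3 probes on the plus strand within 817 bases. Apoa2, an apolipoprotein of high-density lipoprotein, had 2 within 185 bases. Letters are read from the array files, and either the first 30 bases or all 60 are shown.
Adamts4 probe 1, chr1:173189952-173190011, first 30 bases: cgcatctttgagcattagttttctcatgtg
Adamts4 probe 2, chr1:173190304-173190363, first 30 bases: aaacacttggcaaagatagtcaacaagaac
Adamts4 probe 3, chr1:173190709-173190768, first 30 bases: aatgagaggaacaggatgtggtctggtatt
Apoa2 probe 1, chr1:173156320-173156379, all 60 bases: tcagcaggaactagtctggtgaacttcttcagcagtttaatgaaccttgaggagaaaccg
Apoa2 probe 2, chr1:173156445-173156504, first 30 bases: gctagagcccctctccctaccttctgcctg
Rgs7 probe 3, chr1:177008321-177008380, all 60 bases: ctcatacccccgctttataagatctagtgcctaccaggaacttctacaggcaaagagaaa
Ifi205, chr1:175942245-175942304, first 30 bases: gtcacctctaaatgacagctttagtagtat
6330418B08Rik, chr1:176992099-176992158, first 30 bases: ggtccttaaaacatggtattagcagaggtt
Slamf6 probe 2, chr1:173873869-173873928, first 30 bases: ctgtttcccttattagaggataaatctgtg
Exactly 1 reading frame without a stop codon was found in Apoa2 probes 1 and 2, Adamts4 probe 3, Rgs7 probe 3, 6330418B08Rik and Slamf6 probe 2. Adamts4 probe 2 had 2 such frames, and Adamts4 probe 1 and Ifi205 had 0. An mm9 gene annotation was not used here, so exon positions are not given.

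The third Adamts4 probe was the largest change among the flanking genes. Its level was -3.17, -2.92 and -3.15 in DKO BF and 1.49, 1.61 and 2.09 in Con BF. In CTX it was -3.99, -4.78 and -2.57 in DKO and 1.63, 1.66 and 1.77 in Con. Every DKO array lay more than 4 log2 units below every Con array, and all 12 were well above background. The difference was -4.81 in BF (SE 0.17, adjusted p 0.00137), -5.47 in CTX (SE 0.47, adjusted p 0.0343) and -5.14 over both tissues (SE 0.23, adjusted p 0.000668), a 35.3-fold fall. In the CTX arrays of the second slide alone, where 1 DKO array met 3 Con arrays, it was -4.26. The call held in all 15 alternative settings tried, including the fit without DKO mice 1 and 3 (-5.56, adjusted p 0.022).

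The second Adamts4 probe fell less. Its level was -2.15, -1.78 and -1.73 in DKO BF against -0.79, -0.57 and -0.18 in Con BF, and -2.51, -3.35 and -1.98 in DKO CTX against -0.90, -0.91 and -0.62 in Con CTX. The groups again did not overlap, and the difference over both tissues was -1.59 (SE 0.19, adjusted p 0.0348). The first Adamts4 probe, which represents the gene in the counts by gene, overlapped between groups in both tissues and differed by 0.08 (SE 0.17, adjusted p 0.875 over all probes). Along these 817 bases the difference thus went from 0.08 to -1.59 to -5.14, in order of position on the plus strand. The call of the second probe did not hold without DKO mouse 1 (adjusted p 0.188), DKO mouse 2 (0.112), Con mouse 1 (0.106) or Con mouse 3 (0.111), with differences of -1.43 to -1.68 in these fits. Nor did it hold with slide as a block (difference -1.19, limma adjusted p 0.704).

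Apoa2 showed the same contrast between neighbouring probes, in the opposite order. The first probe was at -7.20, -7.80 and -9.0 in DKO BF and -2.92, -3.31 and -2.82 in Con BF. In CTX it was at -8.88, -5.35 and -8.47 in DKO and -3.42, -3.34 and -3.20 in Con. All 6 Con arrays and 1 of 6 DKO arrays were well above background, and the groups did not overlap. The probe fell in DKO mice by a fitted difference of -4.61 over both tissues (SE 0.48, adjusted p 0.0176) and of -4.99 in BF (SE 0.45, adjusted p 0.049). Because no DKO BF array was well above background, the BF level in Con mice is stated as at least 12.1-fold higher, against the lowest signal well above background on each DKO array. The second Apoa2 probe, whose start lies 125 bases further along the plus strand, differed by -0.02 (SE 0.07, adjusted p 0.924), with levels of 1.33 to 1.86 across all 12 arrays. The call of the first probe did not hold without DKO mouse 1 (adjusted p 0.0993), Con mouse 1 (0.101) or Con mouse 3 (0.0955). Nor did it hold with slide as a block (difference -5.57, limma adjusted p 0.122). Under normexp background correction the difference shrank to -1.52 (adjusted p 0.00119).

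**Figure D1:**
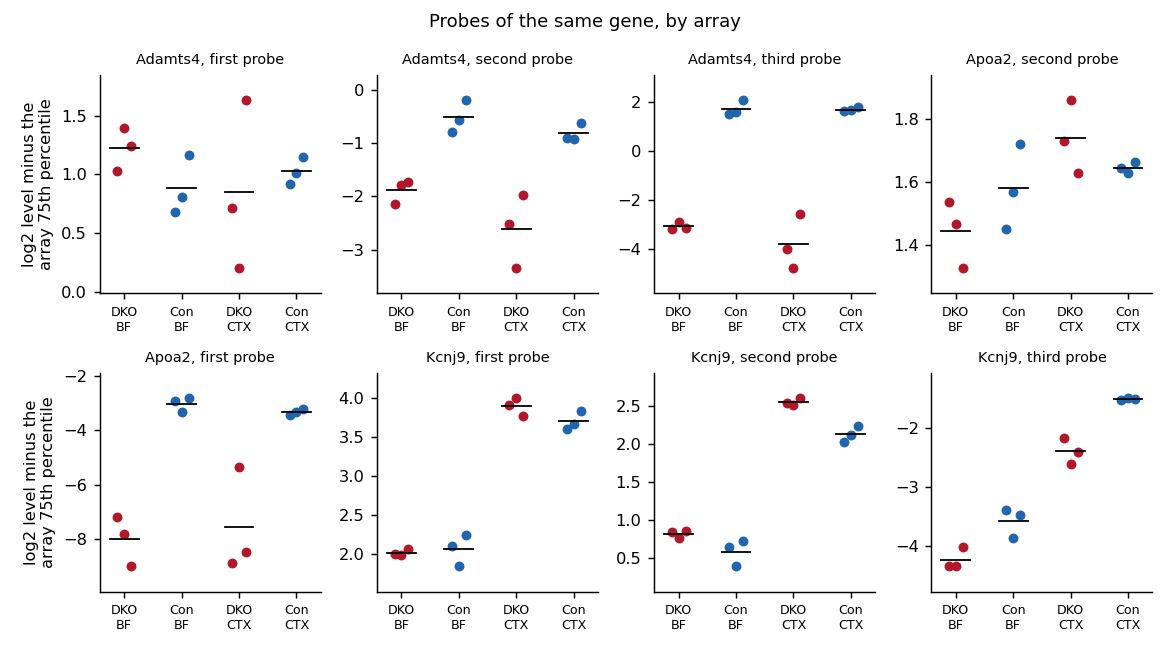
Log2 level minus the array's 75th percentile for the 3 probes of Adamts4, the 2 probes of Apoa2 and the 3 probes of Kcnj9, with 1 point per array, lines at the mean of 3 arrays and groups DKO and Con in basal forebrain (BF) and cortex (CTX). The third Adamts4 probe and the first Apoa2 probe separate the genotypes by over 4 log2 units on average, while the first Adamts4 and second Apoa2 probes overlap. Each panel has its own vertical scale.

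A fit on every probe, in place of 1 probe per gene, covered 41628 probes over both tissues. Of these, 49 passed an adjusted p of 0.05 (0.118%), 41 of them higher in DKO mice (0.0985%) and 8 lower (0.0192%). The flanking genes contributed 388 probes, of which 7 passed, 6 lower and 1 higher. The 8 lower probes were 2 of Psen2, 2 of Adamts4 and 1 each of Apoa2, Ifi205, 6330418B08Rik and Rgs7, and no probe from elsewhere on the array passed in that direction. The Apoa2 and Ifi205 probes and 1 of the Psen2 probes entered this test through the Con arrays, where they were brighter, and the Slamf6 probe, the 1 that was higher, through the DKO arrays. When only probes well above background on every array were tested, 1 of 330 flanking probes passed, the third Adamts4 probe, where 0.0439% of all such probes did, and with no filter 2 of 520 passed, where 0.0283% of all probes did. In BF alone, 5 probes on the array passed in the lower direction (0.0123%), 2 of Psen2 and 3 of flanking genes, and in CTX 3 did (0.00761%), 1 of Psen2 and 2 of flanking genes. The count of 7 fell to 1 without DKO mouse 1, Con mouse 1 or Con mouse 3, to 2 without DKO mouse 2 and to 4 without Con mouse 2, and it stayed at 7 without DKO mouse 3.

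Kcnj9, which encodes a subunit of a G-protein-gated potassium channel, had probes that moved in opposite directions. Its second probe was at 0.84, 0.77 and 0.86 in DKO BF against 0.64, 0.39 and 0.72 in Con BF, and at 2.53, 2.51 and 2.60 in DKO CTX against 2.02, 2.12 and 2.24 in Con CTX. Probe 3 was at -4.34, -4.35 and -4.02 in DKO BF against -3.40, -3.87 and -3.48 in Con BF, and at -2.17, -2.62 and -2.42 in DKO CTX against -1.53, -1.50 and -1.52 in Con CTX. Neither probe overlapped between groups in either tissue, with probe 2 higher and probe 3 lower in DKO mice. The differences over both tissues were 0.33 (SE 0.07, adjusted p 0.346) and -0.77 (SE 0.13, adjusted p 0.131), which missed the threshold. The first probe differed by 0.07 (SE 0.08). Kcnj9 was chosen after its values were seen, as were the probes of Adamts4, Apoa2 and Slamf6.

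Among genes with several probes well above background on all 12 arrays, the probes of 1 gene seldom disagreed this much. Of 80 such flanking genes, 2 (2.5%), Adamts4 and Kcnj9, had probe differences spanning more than 1 log2 unit, against 21 of 8263 genes (0.254%) on the rest of the array. The median span was 0.16 for the flanking genes and 0.15 for the rest. Probes apart in both directions were found for 1 flanking gene (1.25%), Kcnj9, and for 119 of the rest (1.44%), a like share.

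Counted by gene, 2 of the 248 flanking genes passed an adjusted p of 0.05 over both tissues, Ifi205 and 6330418B08Rik, both lower in DKO mice. Ifi205 was tested only through the Con BF arrays, where it was brighter. Among genes well above background on every array, 1 of 209 flanking genes passed, 6330418B08Rik, where 0.0931% of all such genes did, and 61 of the 209 did not overlap, where 16.8% of all such genes did not. On the whole array 0.157% of genes passed, and 4 genes fell (0.0149%): Psen2, these 2 and 1 other. In 73 flanking genes (29.4%) the 3 DKO mice did not overlap the 3 Con mice, 28 higher and 45 lower, where 16.7% of all tested genes did not overlap, 6.44% higher and 10.3% lower. Of 87 flanking genes with several probes past the filter, 31 separated by their brightest probe. In 10 of these 31 another probe separated the same way, and in 0 the opposite way. A like count for the rest of the array is not given. An unadjusted p under 0.05 was reached by 20.6% of the flanking genes and by 10.8% of all genes. The median size of the difference was 0.15 against 0.11, and 15.3% against 6.21% of genes differed by more than 0.5. With all 26773 genes as the background, the flanking genes thus held a larger share of separated genes, mostly with small differences. The 2 calls were both lost without DKO mouse 1, DKO mouse 2 or Con mouse 1, 1 was lost without Con mouse 3, and 4 genes passed without DKO mouse 3. Without DKO mouse 3, 116 of the 248 did not overlap, against 39.5% of all genes. Without DKO mice 1 and 3, 171 of the 248 did not, against 62.5%, a higher background because only 1 DKO mouse remains.

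By tissue, 37 of 234 flanking genes (15.8%) did not overlap in BF, 20 higher and 17 lower, where the array had 9.97%, 4.65% higher and 5.32% lower, and 1 passed the adjusted test (0.0309% on the array). Of these, 54.1% were higher in DKO mice, but 38.6% under quantile scaling and 66% after normexp correction, so the balance of directions in BF depended on the scaling. In CTX 65 of 236 (27.5%) did not overlap, 26 higher and 39 lower, where the array had 22.4%, 8.87% higher and 13.5% lower, and 1 passed (0.0117% on the array). The BF call was lost without any DKO mouse, Con mouse 1 or Con mouse 3, with adjusted p for Ifi205 of 0.0749 to 0.244. The CTX call, 6330418B08Rik, was lost without DKO mouse 1 or any Con mouse, with adjusted p of 0.112 to 0.394. With any 1 mouse left out the BF count without overlap was 56 to 74, with 16.1% to 24.3% of all genes. The CTX count was 152 of 236 without DKO mouse 3, a share near the 62.6% of all genes. It was 99 of 236 without Con mouse 3 (34.2% of all genes). In CTX 94 of the 236 flanking genes passed the adjusted test without DKO mouse 3, a share near the 37.9% of all genes tested. In CTX the slide holding most DKO arrays differed from that of the Con arrays, and slide and genotype were separated there only by DKO mouse 3.

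A window of the same width around Chat was nearer to the array's 16.7%. Over both tissues the share without overlap was 14.5% of 172 genes around Chat, and it was 16.8% of 1345 genes on the rest of chromosome 1. A difference above 0.5 was found for 8.72% of genes around Chat, against 15.3% around Psen2. These are descriptions of the same 6 mice with no test of the windows.

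Over both tissues the share of separated genes did not decline steadily with distance from Psen2. In bins of 5 Mb, 37.1% of 105 genes were separated from -10 to -5 Mb, 32.6% of 46 genes from -5 to 0 Mb, 11.4% of 70 genes from 0 to 5 Mb and 40.7% of 27 genes from 5 to 10 Mb. On the lower-coordinate side as a whole the share was 35.8%, and on the higher-coordinate side 19.6%. Further from Psen2 on the lower side it was 29.2% at -15 to -10 Mb, 31.7% at -20 to -15 Mb 20.5% at -25 to -20 Mb and 26% at -30 to -25 Mb. Bins at the far end of the chromosome also had high shares, 30% of 20 genes at -180 to -175 Mb and 25% of 24 genes at -175 to -170 Mb. On the higher side it was 10.9% at 10 to 15 Mb. In BF alone the 4 bins within 10 Mb had 25%, 9.76%, 6.06% and 14.8%, against 9.97% on the array. In CTX alone they had 28.1%, 37%, 19.4% and 29.6%, against 22.4% on the array, so there the bin just below Psen2 had the highest share of the 4. A window of 5 Mb held 19.8% separated genes over both tissues, 7.48% in BF and 26.5% in CTX, and a window of 20 Mb held 27%, 14.3% and 23.5%.

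**Figure D2:**
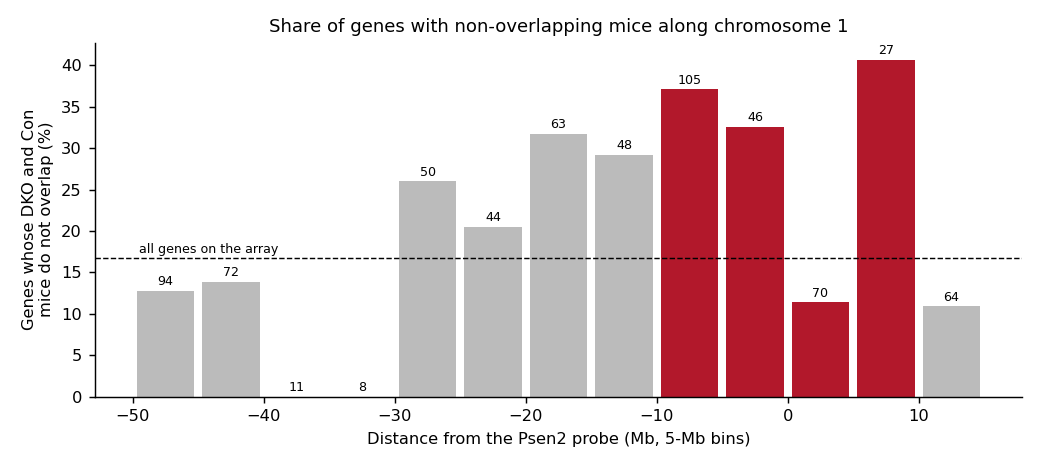
Percent of genes whose 3 DKO mice did not overlap the 3 Con mice in the mean of both tissues, in 5-Mb bins of distance from the Psen2 probe, with the number of genes above each bar. Red bars are the 248 flanking genes and the dashed line is the share of all genes tested (16.7%). Bars from -30 to 0 Mb stand above the line, the bar from 0 to 5 Mb stands below it at 11.4%, and that from 5 to 10 Mb is at 40.7%.

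**Figure D3:**
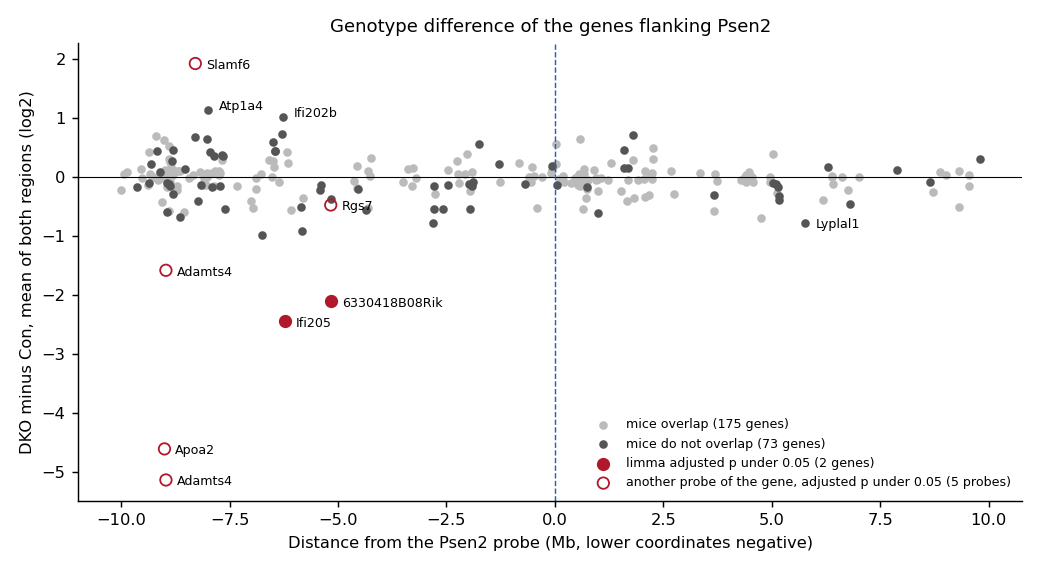
Log2 difference of DKO minus Con mice over both tissues against distance from the Psen2 probe in Mb, with 1 point for each of the 248 flanking genes and open circles for other probes of a gene that passed the adjusted test. All points past the threshold lie between -10 and -5 Mb, and genes within 5 Mb on either side stay between -0.78 and 0.70. The horizontal line marks no difference.

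Among genes with a symbol, none of the 3 nearest on each side of Psen2 passed the test, nor did any unnamed transcript lying between them. Cdc42bpa, a kinase that acts on the actin cytoskeleton, lies 0.06 Mb below Psen2 and differed by 0.12 (SE 0.06, adjusted p 0.49). Adck3, a mitochondrial protein needed for coenzyme Q synthesis, lies beside it and differed by 0.19 (SE 0.08, adjusted p 0.466), with no overlap between mice. The DNA repair enzyme Parp1 differed by -0.11 (SE 0.08), the inositol trisphosphate kinase Itpkb by 0.0049 (SE 0.10), the nucleoporin Ahctf1 by 0.02 (SE 0.08) and the cell-cycle gene regulator Lin9 by -0.01 (SE 0.10), with adjusted p of 0.603 to 0.986. Other probes differed by 0.16 and 0.41 for Itpkb and by -0.31 to 0.04 for Lin9. They differed by 0.04 to 0.31 for Cdc42bpa and by 0.36 for Adck3, and none of these passed the adjusted threshold. The signs of Itpkb, Ahctf1 and Lin9 turned in some of the fits with 1 mouse left out. At the edges of the window, the gene just inside on the higher side was Prox1 (0.29) and the gene just outside was Gm29678 (-0.08). On the lower side they were NAP062699-1 (-0.22) and Uhmk1 (-0.07).

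Ifi205, a member of the p200 family, fell in DKO mice. Its level was -8.75, -8.40 and -8.99 in DKO BF and -6.03, -5.42 and -5.91 in Con BF. In CTX it was -8.63, -8.64 and -8.47 in DKO and -6.53, -6.46 and -6.82 in Con, where it was well above background on no array and was not tested in that tissue alone. The groups did not overlap in either tissue. The fitted difference was -2.93 in BF (SE 0.27, adjusted p 0.0377) and -2.45 over both tissues (SE 0.26, adjusted p 0.0147). Only the 3 Con BF arrays were well above background, so the BF level in Con mice is stated as at least 1.77-fold higher. A second probe of Ifi205 was above background on no array. Over both tissues the call did not hold without DKO mouse 1 (adjusted p 0.0564), DKO mouse 2 (0.0706), Con mouse 1 (0.0861) or Con mouse 3 (0.0745). Nor did it hold with slide as a block (difference -2.53, limma adjusted p 0.208). Under normexp correction the difference was -0.24 (adjusted p 0.33).

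Ifi202b, the p200 gene next to it, differed in the opposite direction. Its level was -3.66, -3.11 and -2.99 in DKO BF against -4.27, -4.64 and -4.00 in Con BF, and -3.89, -3.50 and -4.42 in DKO CTX against -4.97, -4.89 and -4.85 in Con CTX. All DKO arrays were above all Con arrays in each tissue. The difference of 1.01 over both tissues (SE 0.18, adjusted p 0.144) missed the threshold, and a second probe of the gene gave 1.33 (SE 0.24), also without overlap. The remaining p200 members did not separate: Ifi204 differed by 0.16, Mndal by -0.09, Aim2 by 0.05, Pyhin1 by 0.28 and Pydc3 by -0.0022. Of the 7 tested members, 1 passed, where 0.157% of all genes did, and 2 did not overlap over both tissues (28.6%, against 16.7% of all genes), with a median difference of 0.05. In control mice Ifi204 was higher in BF than in CTX by 1.06 (SE 0.13, adjusted p 0.0011), a comparison in which tissue and slide coincide.

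Probes of Aim2, Ifi202b, Ifi204, Ifi205, Mndal and Pyhin1 were compared with one another, without Pydc3. Over 41 pairs of probes from different genes, the most alike pair shared 31 identical bases in an ungapped overlap of 52. Probes of the same gene were no more alike, and those of Ifi205 shared 19 identical bases of 59. Probes were not compared with transcripts of the other genes, so binding to those was not tested.

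6330418B08Rik, an unnamed transcript on the minus strand, fell in DKO mice. Its level was -5.39, -4.13 and -3.69 in DKO BF and -2.18, -1.66 and -3.13 in Con BF. In CTX it was -5.13, -4.99 and -5.42 in DKO and -3.06, -2.90 and -3.16 in Con. No DKO array reached a Con array of the same tissue, and all 12 were well above background. The difference was -2.14 in CTX (SE 0.18, adjusted p 0.0412), -2.08 in BF (SE 0.52, adjusted p 0.967) and -2.11 over both tissues (SE 0.27, adjusted p 0.0289), a 4.32-fold fall. Under normexp correction it was -1.17 over both tissues (adjusted p 0.0338) and -1.08 in CTX (adjusted p 0.0143). On the second slide alone it was -2.38. Over both tissues the call did not hold without DKO mouse 1 (adjusted p 0.0963), DKO mouse 2 (0.107) or Con mouse 1 (0.156). Nor did it hold over both tissues with slide as a block (difference -1.87, limma adjusted p 0.834).

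This probe lies between probes of Rgs7, on the same strand. Rgs7 speeds the shutdown of inhibitory G proteins in neurons, and its 3 probes were all lower in every DKO array than in every Con array of the same tissue. The third probe was at 0.22, -0.01 and 0.02 in DKO BF against 0.60, 0.46 and 0.57 in Con BF, and at 0.99, 1.08 and 1.16 in DKO CTX against 1.60, 1.59 and 1.53 in Con CTX. It fell by 0.48 over both tissues (SE 0.06, adjusted p 0.0415). The other 2 probes differed by -0.37 (SE 0.06, adjusted p 0.0997 over all probes) and -0.40 (SE 0.06, adjusted p 0.126) and share 53 of 54 overlapping bases, so they are not independent. The call of the third probe did not hold without any one of DKO mouse 1, DKO mouse 2 or a Con mouse, with adjusted p of 0.0882 to 0.359 and a difference that stayed between -0.46 and -0.49. Nor did it hold with slide as a block (difference -0.46, limma adjusted p 0.734).

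**Figure D4:**
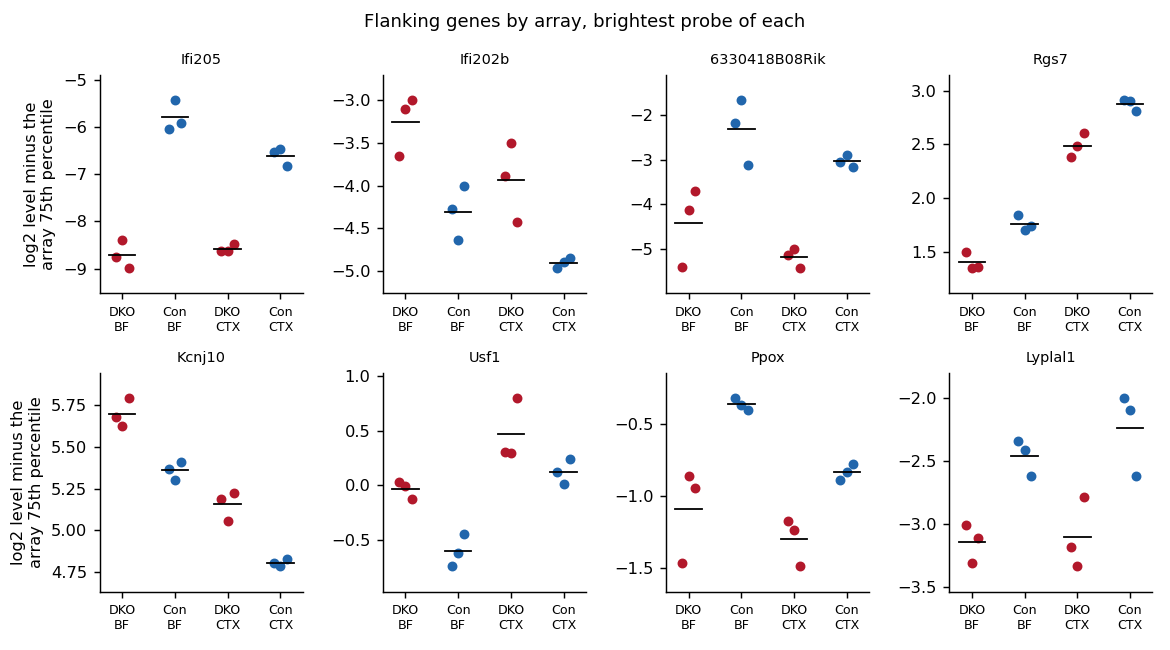
Log2 level minus the array's 75th percentile on each of 12 arrays for 8 flanking genes, brightest probe of each, with lines at the mean of 3 arrays. In every panel the DKO and Con points of a tissue do not overlap: Ifi202b, Kcnj10 and Usf1 are higher in DKO, and Ifi205, 6330418B08Rik, Rgs7, Ppox and Lyplal1 are lower. Each panel has its own vertical scale.

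The SLAM receptors gave mixed values. Slamf6, a receptor of T, B and natural killer cells, had 3 tested probes. Its second probe was at -6.09, -6.00 and -5.60 in DKO BF against -7.24, -7.43 and -7.74 in Con BF, and at -6.03, -5.61 and -5.54 in DKO CTX against -8.17, -8.33 and -7.49 in Con CTX. It was well above background on all 6 DKO arrays and on 0 of 6 Con arrays, so it entered the test only through the group where it was brighter. The fitted difference was 1.92 (SE 0.24, adjusted p 0.0368, at least 1.69-fold higher in DKO mice). The brightest probe differed by 0.67 (SE 0.25, adjusted p 0.438) and the third by -0.94 (SE 0.43, adjusted p 0.492). The call of the second probe did not hold without DKO mouse 1 (adjusted p 0.108), DKO mouse 2 (0.202), Con mouse 1 (0.222), Con mouse 2 (0.0654) or Con mouse 3 (0.119), and under normexp correction the difference was 0.35. Nor did it hold with slide as a block (difference 2.16, limma adjusted p 0.318). Of 8 tested SLAM genes by brightest probe, 0 passed in limma's test, 2 had an unadjusted p under 0.05 (25%, against 10.8% of all genes) and 4 did not overlap (50%, against 16.7%). Of these, Slamf6, Slamf8 (0.35) and Cd48 (0.14) were higher in DKO mice and Ly9 was lower (-0.69). Under normexp correction the brightest Slamf6 probe differed by 0.15 and Ly9 by -0.08. The median of the 8 was 0.07.

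The Fc receptors likewise held no gene past the threshold, with 2 of 6 at an unadjusted p under 0.05 (33.3%, against 10.8% of all genes) and 2 without overlap (33.3%, against 16.7%). Fcgr3, an activating receptor of macrophages and microglia, was at 1.74, 1.48 and 1.24 in DKO BF against 1.1, 1.07 and 1.25 in Con BF, and at 1.60, 1.93 and 1.49 in DKO CTX against 1.09, 1.08 and 1.25 in Con CTX. It overlapped in BF and not in CTX, with a difference of 0.44 over both (SE 0.10, adjusted p 0.32). Fcgr4 differed by 0.69 (SE 0.23), Fcrlb by 0.21 and Fcer1a by -0.41. Neutrophil and red cell markers moved with genotype in the same arrays as given above, and 3 of 5 B cell markers did not overlap over both tissues, higher in DKO by summed level in both tissues. Their part in the values of the SLAM and Fc receptor genes was not tested. A change in the number of cells of a type and a change in RNA per cell cannot be told apart in these tissue samples.

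Over both tissues ion pumps and channels had the largest share of separated genes among the lists, 5 of 8 without overlap (62.5%, against 16.7% of all genes) and 5 of 8 at an unadjusted p under 0.05 (against 10.8%). Of the 5 without overlap, 4 were higher in DKO mice and 1 was lower, Tmem63a (-0.18). Of all genes, 6.44% were separated and higher and 10.3% separated and lower. In CTX alone 3 of 8 did not overlap, a smaller share than the 3 of 6 Fc receptors. None of the 8 passed limma's adjusted threshold, and they had a median difference of 0.22. Kcnj10, the inward rectifier potassium channel of astrocytes, was at 5.68, 5.62 and 5.79 in DKO BF against 5.37, 5.30 and 5.41 in Con BF, and at 5.19, 5.06 and 5.22 in DKO CTX against 4.80, 4.78 and 4.83 in Con CTX. It was higher in every DKO array than in every Con array of the tissue, by 0.34 (SE 0.06, adjusted p 0.11). Atp1a4, the sodium pump subunit known from sperm, differed by 1.13 (SE 0.35, adjusted p 0.412), the largest positive value by gene, and Casq1, the calcium store protein of muscle, by 0.63 (SE 0.19, adjusted p 0.411). Both were dim, at -3.48 or lower on every array. These 3 genes are near each other, at -8.02 to -7.85 Mb.

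Metabolic enzymes had 5 of 10 genes without overlap, all lower in DKO mice, where 10.3% of all genes were separated and lower and 6.44% separated and higher, with none past the adjusted threshold and 2 at an unadjusted p under 0.05 in limma's test (20%, against 10.8% of all genes). Ppox, an enzyme of haem synthesis, was at -1.47, -0.86 and -0.95 in DKO BF against -0.32, -0.37 and -0.41 in Con BF, and at -1.18, -1.24 and -1.49 in DKO CTX against -0.89, -0.84 and -0.78 in Con CTX. The groups did not overlap, and the difference was -0.59 (SE 0.09, adjusted p 0.0784). A second Ppox probe differed by -0.16 (SE 0.14). Nit1, an amidase, differed by -0.16, Adss, of purine synthesis, by -0.14 and the manganese transporter Slc30a10 by -0.17. Other probes went the opposite way for Nit1 (0.13) and Adss (0.03 and 0.19). For Bpnt1, also separated (-0.10), another probe gave -0.14.

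Usf1, a transcription factor that binds E-box sites, was higher in DKO mice at both of its probes. The brighter was at 0.03, -0.0013 and -0.13 in DKO BF against -0.74, -0.61 and -0.44 in Con BF, and at 0.31, 0.30 and 0.80 in DKO CTX against 0.12, 0.01 and 0.24 in Con CTX. The groups did not overlap, with a difference of 0.45 (SE 0.09, adjusted p 0.213), and the dimmer probe gave 0.35 (SE 0.10). Of the 12 chromatin and nuclear genes tested, 4 did not overlap (33.3%, against 16.7% of all genes) and 0 passed in limma's test, with 4 at an unadjusted p under 0.05 (33.3%, against 10.8%). The others named by rule were Zbtb18 (-0.16), H3f3a (-0.16) and Lbr (0.15). The median of the 12 was -0.05.

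On the higher-coordinate side the largest fall among genes that separated was Lyplal1, a serine hydrolase 5.76 Mb from Psen2. It was at -3.01, -3.31 and -3.11 in DKO BF against -2.34, -2.41 and -2.62 in Con BF, and at -3.19, -3.34 and -2.79 in DKO CTX against -2.00, -2.09 and -2.62 in Con CTX. All DKO arrays were below all Con arrays of the tissue, with a difference of -0.78 (SE 0.16, adjusted p 0.229). Efcab2, on the lower-coordinate side at -1.74 Mb, and Dnah14, at 1.59 Mb, are linked to motile cilia. They were higher in DKO mice by 0.56 (SE 0.14, adjusted p 0.368) and 0.45 (SE 0.20, adjusted p 0.466). Another Dnah14 probe gave 0.11. Efcab2 in CTX was at 0.22, 0.27 and -0.75 in DKO against -0.95, -0.84 and -1.01 in Con, so DKO mice 1 and 2 accounted for most of its difference and the array on the second slide for little.

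Ncstn encodes nicastrin, another subunit of gamma-secretase, and lies at -8.16 Mb from Psen2. It was at 0.16, -0.05 and -0.04 in DKO BF against 0.08, 0.02 and 0.14 in Con BF, and at 0.32, 0.33 and 0.69 in DKO CTX against 0.68, 0.65 and 0.67 in Con CTX. The groups overlapped in each tissue, but in the mean of both tissues every DKO mouse lay below every Con mouse, so Ncstn is among the 73 separated genes. The low DKO values in CTX were those of DKO mice 1 and 2, on the first slide. DKO mouse 3, on the same slide as the Con CTX arrays, lay at 0.69, above every Con CTX array. The difference over both tissues was -0.14 (SE 0.07, adjusted p 0.507), and another Ncstn probe gave -0.30 without separating.

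The remaining lists held no gene past the adjusted threshold, and their shares are to be read against 16.7% of all genes without overlap and 10.8% at an unadjusted p under 0.05. Of 16 neuronal and cytoskeletal genes 6 did not overlap (37.5%) and 4 had an unadjusted p under 0.05 in limma's test (25%). Among them Fmn2, an actin nucleator, differed by -0.23, the immunoglobulin-family protein Igsf8 by -0.18 and the actin regulator Enah by 0.15. Of 9 mitochondrial genes 3 did not overlap (33.3%), with 0 at an unadjusted p under 0.05, and Sdhc and Tfb2m differed by 0.09 and -0.13. Of 7 developmental genes 3 did not overlap (42.9%), with 2 at an unadjusted p under 0.05 (28.6%). The growth factor Tgfb2 differed by 0.17, the transcription factor Prox1 by 0.29 and the Nodal antagonist Lefty1 by -0.36. Of 14 genes of membrane traffic and protein turnover, 2 did not overlap (14.3%, near the share of all genes) and 0 had an unadjusted p under 0.05. Differences were negative for 13 of the 14, with a median of -0.07, and for 14988 of all 26773 genes, with a median of -0.02. Copa, Dedd, Ufc1 and Usp21 differed by -0.13, -0.12, -0.11 and -0.17.

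Among unnamed transcripts 20 of 94 (21.3%) did not overlap, and among genes with a symbol 53 of 154 (34.4%), against 14.1% and 18.2% of the same classes on the rest of the array. Beside genes already described, the 10 largest negative differences among genes without overlap included LOC102639543 (-0.98, SE 0.27), the olfactory receptor gene Olfr248 (-0.92, SE 0.36), LOC102642028 (-0.78, SE 0.29), the transcript named chr1:183142656-183163206_R (-0.61) and Gm36360 (-0.56). The 10 largest positive differences among genes without overlap included ENSMUST00000138143 (0.73, SE 0.23), chr1:183951156-183986156_F (0.70, SE 0.31) and chr1:175660642-175671878_R (0.60, SE 0.18). Adjusted p over both tissues was 0.397 to 0.465 for these 8.

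The genotype difference was not found to depend on the tissue, in a test limited by the slides. For DKO mice 1 and 2 both arrays lay on the first slide. For DKO mouse 3 and the Con mice BF lay on the first slide and CTX on the second. Tissue dependence and slide therefore cannot be fully told apart. A test of BF minus CTX within each mouse, DKO against Con, called 0 of the 248 flanking genes in limma, with a smallest adjusted p of 0.502, and 8.06% had an unadjusted p under 0.05 against 9.84% of all genes (0% of all genes passed). Without DKO mouse 3, when slide followed genotype in CTX, 5 flanking genes passed, as did 3.31% of all genes.

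In control mice all BF arrays lay on the first slide and all CTX arrays on the second. Tissue and slide cannot be told apart in that comparison, in which the flanking genes differed as often as other genes did. Of 246 tested, 138 (56.1%) passed, against 55.8% on the array, 52 higher in BF and 86 higher in CTX, where 22.2% of all genes were higher in BF and 33.7% in CTX. Zbtb18, a transcriptional repressor that acts in cortical neuron development, was lower in BF than in CTX by -2.20 (SE 0.07, adjusted p 3.39e-05), and Rgs7 by -1.11 (SE 0.06, adjusted p 0.000106). Efcab2 was higher in BF by 1.41 (SE 0.08, adjusted p 9.88e-05), and Kcnj10 by 0.55 (SE 0.07, adjusted p 0.00108). Without Con mouse 1 the count was 80, with 32.6% of all genes.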

How the data were processed

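RNA from basal forebrain and cortex of 3 DKO and 3 Con mice was hybridised to 12 single-colour Agilent arrays. Per the labels and file headers, scans were read with Agilent Feature Extraction 10.7.1.1, and the deposited files give background-corrected probe intensity. The authors also deposited a series table: its raw values equalled log2 of that intensity for single-spot probes, and its normalized log2 values had the same distribution on every array. Here log2 intensity was averaged over spots of a probe and centred on each array's 75th percentile, with 37 of 56605 probes left out for flagged spots. Each gene took its brightest probe, and a gene was tested where the scanner software marked that probe as clearly over background in all 3 arrays of some group compared. Tests used limma 3.58.1 in R 4.3.3 (lmFit, eBayes with trend) across all genes with Benjamini-Hochberg adjustment. A gene called separate, apart or without overlap had all 3 DKO values above or below all 3 Con values. For both tissues together, each mouse gave the mean of its 2 arrays, so n = 3 mice a group. A bound written "at least" compares the bright group with the lowest signal well above background on each dim array.

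Named genes were those past the threshold, the 10 largest rises and falls among separated genes, the 3 nearest genes with a symbol on each side (unnamed and predicted transcripts were passed over), Ncstn and up to 4 genes of each list by smallest p. Some genes this rule names are not reported here. The members and lists were chosen with earlier results of these data known. RefSeq held a symbol for 177 flanking genes. Labels state separate mice. In simulated data with 200 changed genes, 55.2% of 2-fold and 95.5% of 4-fold changes over both tissues were recovered. Replicate numbers did not pair DKO with Con mice by the labels. Precision is limited by the number of arrays, and no probe was saturated. Alternatives covered normalization, background, filters, blocks, probe choice, window width and each mouse left out.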

Additional observations from a re-analysis of the deposited data

How the results depend on the processing

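Over both regions the call of the third Adamts4 probe held in 15 of 15 alternatives, that of Ifi205 in 9 of 17 and that of 6330418B08Rik in 10 of 18. The count of flanking genes passing over both regions (2) was 1 under normexp, without a filter, with probes well above background on every array and without eBayes trend, 0 with slide as a block, 6 with all 12 arrays and the mouse as a random block, 7 with every probe as its own row, and 0 to 4 with 1 mouse left out. In basal forebrain (1) it was 0 under normexp, without a filter and with probes well above background on every array, 3 with every probe, and 0 to 1 with 1 mouse left out. In cortex (1) it was 0 under quantile scaling, the authors' normalized values, no filter and no trend, 2 with every probe, 2 on slide 2 alone, and 0 to 94 with 1 mouse left out. Without DKO mice 1 and 3 it was 0, 0 and 78. With the replicate number as a block, 0 flanking genes passed in each comparison and 3 member probes passed over both regions. Numbers did not pair the mice: same-number correlations of deviations were -0.45 to 0.41 in basal forebrain and 0.02 to 0.28 in cortex.

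In basal forebrain 68 of 344 genes were without overlap with no filter (16% of all genes). With every probe 56 of 371 were (9.72% of all probes). In cortex 106 of 366 were with every probe (22.7% of all probes). On slide 2 alone, with 1 DKO array, 138 of 236 genes were (53.5% of all genes). With 1 mouse left out, genes without overlap numbered 56 to 74 in basal forebrain (16.1% to 24.3% of all genes). They numbered 77 to 152 in cortex (26.5% to 62.6%) and 83 to 116 over both (22.3% to 39.5%). Without DKO mice 1 and 3 they numbered 121, 193 and 171 (40.8%, 78.8% and 62.5% of all genes). These shares of all genes were always higher than in the main fit. Windows of 2.5 and 5 Mb held 7.79% and 7.48% in basal forebrain, against 9.97% of all genes. Member probes passing (7) numbered 2 with no filter, 1 with probes well above background on every array, 3 without trend, 1 with slide as a block, 1 without DKO mice 1 and 3, and 1 to 7 with 1 mouse left out. The tissue-dependence count was 0 to 5 and the control tissue count 80 to 132 with 1 mouse left out.

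Signs turned for differences near 0 in Ahctf1 (-0.0245 with slide as a block, -0.0264 to 0.0568 with 1 mouse left out), Itpkb (-0.031 with slide as a block, -0.0712 without DKO mice 1 and 3, -0.0788 to 0.103 with 1 mouse left out) and Lin9 (-0.0553 to 0.0315 with 1 mouse left out). They also turned for Fcer1a (-0.41 in the main fit, 0.0916 with slide as a block), which was well above background on every array. The sign of Pyhin1 turned as well (0.28 in the main fit, -0.204 to 0.588 with 1 mouse left out). The causes were not tested.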
